A study of Mus musculus with 8 samples.

Results

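This account covers Spty2d1 and 9 other histone chaperones, of which 9 in all had a probe set of their own among 22180 named genes on the array. The 10 were Spty2d1, Asf1a, Asf1b, Hira, Chaf1a, Chaf1b, Nap1l1, Supt16, Ssrp1 and Supt6. Spty2d1 was chosen by its measured difference between the groups on these arrays, and the others by their function, with the values known. No probe set carried Ssrp1 as its single symbol, so the level of Ssrp1 was not analysed here, and only its promoter was searched. The differences of the 9 measured members are therefore given as a description, with no test.

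Hippocampal neurons of C57BL/6J mice, an inbred laboratory strain, were taken from embryos (E18.5) and cultured for 11 days. Treated cultures were then held in 55 mM KCl for 4 h (4 arrays, replicates 1 to 4), and the others were left untreated (4 arrays, replicates 1 to 4). Raised potassium depolarises neurons and opens their voltage-gated calcium channels. All cultures had received AraC, which kills dividing cells, with their medium changes. Each array had a mouse number of its own. The labels do not say whether one culture held several embryos, so p-values measure the spread between these arrays.

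Histone chaperones escort histones that are not part of a nucleosome, and put them onto DNA or take them off it. Some act behind the replication fork in dividing cells, and others act at any time on genes that are being transcribed, where RNA polymerase II has to pass each nucleosome. A neuron no longer divides, so it replaces its nucleosomes by the replication-independent route, mainly with the histone variant H3.3.

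Arrays of this kind report relative brightness, on a log2 scale on which 1 unit is a doubling. The array medians were 4.44 to 4.48 over 34472 probe sets. Values near these medians are dim. In mixed cultures such as these, fewer cells of a type and less RNA per cell cannot be told apart. Neuronal markers averaged 9.26 to 10.0 in KCl arrays and 9.18 to 9.91 in untreated arrays, and astrocyte markers 8.77 to 9.23 in KCl arrays and 8.69 to 9.43 in untreated arrays. Microglial markers, at 4.22 to 4.59 in KCl arrays and 4.44 to 4.57 in untreated arrays, lay near the array medians. None of 35 measured markers of neurons, hippocampal neurons, astrocytes, the oligodendrocyte lineage, microglia or vascular and meningeal cells passed the limma test over all genes. Without adjustment, 3 of the 35 had a limma p under 0.05, as had 2888 of all 22180 genes. Neurod6, a factor of pyramidal neurons, had a log2 difference of -0.64, with KCl arrays wholly below untreated ones (9.37 to 10.01 in KCl arrays and 10.1 to 10.57 in untreated arrays, limma adjusted p = 0.0843). Prox1, a marker of dentate granule cells, had one of 0.34, with KCl arrays wholly above (limma adjusted p = 0.188). Over all genes, KCl arrays lay wholly below in 4.33% and wholly above in 3.83%. Of the other hippocampal markers, Camk2a (-0.46) and Neurod2 (-0.21) were lower in KCl in 4 of 4 pairs, as 13.2% of all genes were. Zbtb20 (-0.05) was lower in 2 of 4. Gad1, an enzyme of GABA synthesis, had one of 1.08 (limma adjusted p = 0.353), higher in 4 of 4 pairs. With the replicate number as a block, 1 marker, the related enzyme Gad2, fell (log2 difference -0.49, limma adjusted p = 0.0458). Gad2 and the neuronal markers Slc17a7 (-0.33) and Tubb3 (-0.19) were lower in KCl in 4 of 4 pairs. The pairs of the remaining neuronal markers other than Gad1 were mixed. The part of these markers in the results was not tested.

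The promoters of Spty2d1, of the paralogs Asf1a and Asf1b, and of the HIRA partners Ubn1 and Ubn2 are shown, since the text sets a large difference in Spty2d1, Ubn1 and Ubn2 beside small ones in the Asf1 genes. Each runs from 250 bases before the start site to 50 after it, 5′ to 3′ on the gene's own strand, as RefSeq gives it on GRCm38.p6. In Ubn1 (chr16:5049807-5050106, plus strand) and Ubn2 (chr6:38433675-38433974, plus strand) the capitals mark the cAMP response element TGACGTCA, the site of CREB family factors, which reads the same on both strands. In Spty2d1 (chr7:47008365-47008664, minus strand) the capitals mark the one match to CCAAT, which lies on the opposite strand, and they mark the matches to CCAAT on either strand in Asf1a (chr10:53596711-53597010, plus strand) and Asf1b (chr8:83955444-83955743, plus strand).
Spty2d1: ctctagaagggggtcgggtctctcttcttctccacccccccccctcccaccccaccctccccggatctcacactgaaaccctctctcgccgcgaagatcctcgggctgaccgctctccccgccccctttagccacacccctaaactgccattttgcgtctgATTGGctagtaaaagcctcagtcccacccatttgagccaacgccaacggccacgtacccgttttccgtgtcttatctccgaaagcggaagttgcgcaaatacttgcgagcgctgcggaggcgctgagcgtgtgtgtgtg
Asf1a: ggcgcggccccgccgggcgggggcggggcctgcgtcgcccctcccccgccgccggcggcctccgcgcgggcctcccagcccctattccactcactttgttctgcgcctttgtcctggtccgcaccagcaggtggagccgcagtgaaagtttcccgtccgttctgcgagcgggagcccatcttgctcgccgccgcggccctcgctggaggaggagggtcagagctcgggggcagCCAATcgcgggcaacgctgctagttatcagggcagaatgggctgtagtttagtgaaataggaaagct
Asf1b: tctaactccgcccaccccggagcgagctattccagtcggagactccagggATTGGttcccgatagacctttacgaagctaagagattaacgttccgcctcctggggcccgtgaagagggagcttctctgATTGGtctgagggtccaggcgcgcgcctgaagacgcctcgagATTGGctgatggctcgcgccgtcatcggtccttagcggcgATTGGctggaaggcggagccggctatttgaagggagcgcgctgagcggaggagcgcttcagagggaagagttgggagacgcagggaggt
Ubn1: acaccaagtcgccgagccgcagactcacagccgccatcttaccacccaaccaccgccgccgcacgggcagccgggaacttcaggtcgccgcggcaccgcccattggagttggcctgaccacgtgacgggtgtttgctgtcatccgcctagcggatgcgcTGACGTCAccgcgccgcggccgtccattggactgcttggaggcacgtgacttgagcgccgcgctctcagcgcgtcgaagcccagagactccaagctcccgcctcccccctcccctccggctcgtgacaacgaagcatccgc
Ubn2: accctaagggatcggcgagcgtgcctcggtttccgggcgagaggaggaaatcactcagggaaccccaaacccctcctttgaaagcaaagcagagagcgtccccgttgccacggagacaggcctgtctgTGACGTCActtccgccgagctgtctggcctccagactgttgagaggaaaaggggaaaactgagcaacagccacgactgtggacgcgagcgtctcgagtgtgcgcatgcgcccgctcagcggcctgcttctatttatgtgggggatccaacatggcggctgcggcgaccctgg

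Spty2d1 encodes a chaperone that holds H3-H4 through its SPT2 domain; its yeast relative, Spt2, acts on transcribed chromatin. Its probe set (17491276) stood at log2 values of 9.71, 10.08, 10.0 and 10.21 in KCl replicates 1 to 4, against 7.31, 6.97, 7.38 and 7.28 in untreated replicates 1 to 4. The lowest KCl array lay more than 2 log2 units above the highest untreated array. The means were 10.0 ± 0.21 in KCl arrays and 7.23 ± 0.18 in untreated arrays (SD, n = 4 each), so KCl arrays were higher by 2.76 on the log2 scale, or 6.79-fold. The same-numbered pairs differed by 2.4, 3.11, 2.62 and 2.92. Among 22180 genes the difference stood at place 12 from the top. Within the groups Spty2d1 varied no more than other genes: its pooled SD was 0.2, against a median of 0.21 over all genes.

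**Figure D1:**
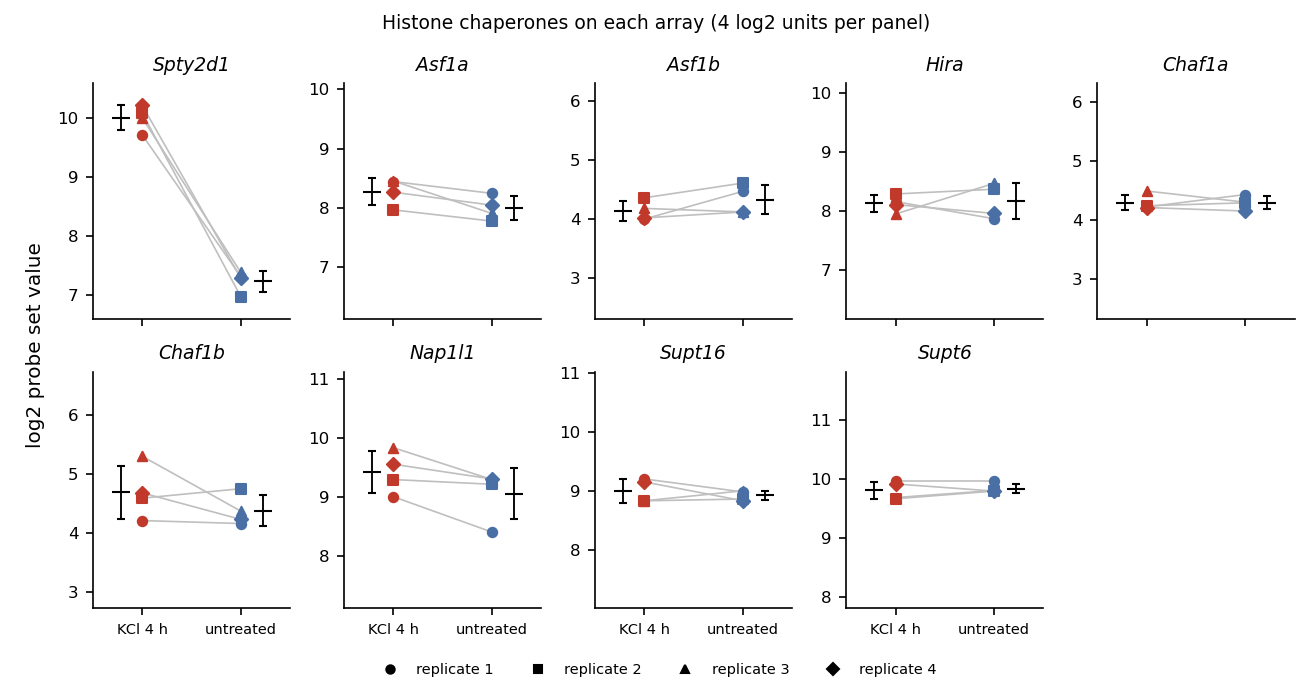
Log2 probe set values (vertical axis, 4 log2 units in every panel) of the 9 measured histone chaperones in KCl 4 h arrays (red, left) and untreated arrays (blue, right), with lines joining same-numbered arrays and black bars giving mean and SD of 4 arrays. Spty2d1 lies at 9.71 to 10.21 in KCl arrays and 6.97 to 7.38 in untreated arrays, while the groups overlap for the other 8.

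Asf1a and Asf1b are paralogs that receive new H3-H4 and hand it on; both serve CAF-1, Asf1a prefers HIRA, and Asf1b is known mainly from dividing cells. Asf1a (probe set 17233331) had log2 values of 8.44, 7.96, 8.45 and 8.26 in KCl arrays, against 8.24, 7.77, 7.9 and 8.04 in untreated arrays. The groups overlapped, but the KCl array was the higher one in 4 of 4 pairs, by 0.2, 0.19, 0.55 and 0.22, and the log2 difference of the means was 0.29. Asf1b (probe set 17503023) had values of 4.0, 4.36, 4.18 and 4.02 in KCl arrays, against 4.47, 4.61, 4.12 and 4.12 in untreated arrays. It lay near the array medians in both groups, was lower in KCl in 3 of 4 pairs, and had a log2 difference of -0.19.

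Hira is the WD-repeat scaffold of the complex that deposits H3.3 outside replication. Its probe set (17323782) had log2 values of 8.16, 8.29, 7.95 and 8.11 in KCl arrays, against 7.87, 8.37, 8.47 and 7.96 in untreated arrays. The KCl arrays lay within the range of the untreated ones, and the log2 difference was -0.04, with 2 pairs higher and 2 lower.

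Chaf1a and Chaf1b are the large and middle subunits of CAF-1, which follows the replication clamp PCNA and assembles nucleosomes on new DNA. Chaf1a (probe set 17338701) had log2 values of 4.22, 4.24, 4.49 and 4.21 in KCl arrays, against 4.43, 4.29, 4.3 and 4.15 in untreated arrays, with equal means of 4.29. Chaf1b (probe set 17327331) had values of 4.21, 4.59, 5.3 and 4.68 in KCl arrays, against 4.16, 4.75, 4.37 and 4.23 in untreated arrays. The log2 difference of 0.32 in Chaf1b rested mainly on KCl replicate 3, whose pair differed by 0.93, against 0.04, -0.16 and 0.45 in the other pairs. Both CAF-1 genes lay near the array medians, as Asf1b did.

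Nap1l1 encodes the widespread nucleosome assembly protein that carries H2A-H2B. Its probe set (17237252) had log2 values of 9.0, 9.29, 9.83 and 9.55 in KCl arrays, against 8.4, 9.21, 9.29 and 9.3 in untreated arrays. The KCl array was the higher one in 4 of 4 pairs, by 0.6, 0.08, 0.54 and 0.25. Untreated replicate 1 lay well under the other untreated arrays, so the log2 difference of 0.37 stood beside a pooled SD of 0.4.

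Supt16 is the large subunit of FACT, which loosens H2A-H2B ahead of RNA polymerase II and restores it behind, and Ssrp1 is its partner. Supt16 (probe set 17306201) had log2 values of 9.2, 8.83, 8.83 and 9.15 in KCl arrays, against 8.98, 8.86, 9.0 and 8.83 in untreated arrays, a log2 difference of 0.08. Supt6, the mammalian Spt6, rides on elongating polymerase and holds H3-H4. Its own probe set (17266374) had values of 9.97, 9.67, 9.69 and 9.92 in KCl arrays, against 9.97, 9.8, 9.81 and 9.8 in untreated arrays, a log2 difference of -0.03. In both genes the groups overlapped and 2 of 4 pairs were higher. A second probe set (17253505), annotated to both Supt6 and its neighbour Sdf2, had values of 6.72, 6.27, 6.6 and 5.77 in KCl arrays and 6.55, 6.11, 6.18 and 5.74 in untreated arrays, which cannot be given to either gene.

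Over the 9 measured members the median log2 difference was 0.08 (0.024 to 0.14 with 1 array left out), beside -0.011 over all genes, and the 8 other than Spty2d1 lay between -0.19 and 0.37. Of the 9, 1 lay past an adjusted p of 0.05 in the limma fit over all genes, with 2.36% of all genes past it (4.44% with the replicate block, 2.43% higher and 2.01% lower). That member is Spty2d1, which was chosen for this difference, so nothing is read from the count. The KCl arrays lay wholly above the untreated ones for the same 1 member, as they did for 3.83% of all genes. In 3 members, Spty2d1, Asf1a and Nap1l1, the KCl array was higher in 4 of 4 pairs, as it was in 11.0% of all genes, and in no member was it lower in all 4, as in 13.2% of all genes.

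The wider chaperone family was described through 35 further genes listed by function, of which 33 had a probe set of their own. Of these 33, 3 rose after KCl, none fell and 30 did not pass (limma, adjusted p under 0.05 over 22180 genes). The background was 1.34% of all genes higher and 1.02% lower. The median log2 difference of the list was 0.0. The 3 that rose were the HIRA partners Ubn1 and Ubn2 and the NAP family gene Nap1l2. Without adjustment, 8 of the 33 had a limma p under 0.05, as had 2888 of all 22180 genes.

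Ubn1 and Ubn2 are alternative ubinuclein subunits of the HIRA complex, which bind H3.3 itself. Ubn1 had log2 values of 8.62, 8.71, 9.11 and 8.64 in KCl arrays, against 7.03, 7.07, 7.81 and 7.75 in untreated arrays. Untreated replicates 1 and 2 lay lower than 3 and 4, and the KCl arrays lay above all 4. Ubn1 rose 2.56-fold (log2 difference 1.35, SE 0.214, limma adjusted p = 0.0179). Ubn2 had values of 8.55, 8.59, 9.03 and 9.18 in KCl arrays, against 7.83, 7.63, 7.93 and 7.89 in untreated arrays, again with no overlap. It rose 2.02-fold (log2 difference 1.02, SE 0.16, limma adjusted p = 0.0173). Both calls were lost without KCl replicate 3 (limma adjusted p = 0.0592 for Ubn1 and 0.0619 for Ubn2) and without untreated replicate 2 (0.0525 and 0.0556), with log2 differences of 0.952 to 1.24 in those fits.

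The other measured partners in H3.3 deposition did not pass. Cabin1, the third partner of HIRA, stood at 8.21 ± 0.1 in KCl arrays and 7.99 ± 0.24 in untreated arrays (SD, n = 4 each), and the log2 difference was 0.22 with a 95% interval of -0.08 to 0.52. Daxx and Atrx form the second H3.3 route, which serves telomeres and repeats. Daxx had a log2 difference of -0.38 (interval -0.9 to 0.15) and Atrx one of 0.17 (interval -0.29 to 0.63). The ubinuclein differences of 1.35 and 1.02 thus stood beside -0.04 for Hira itself, without a test between the genes.

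**Figure D2:**
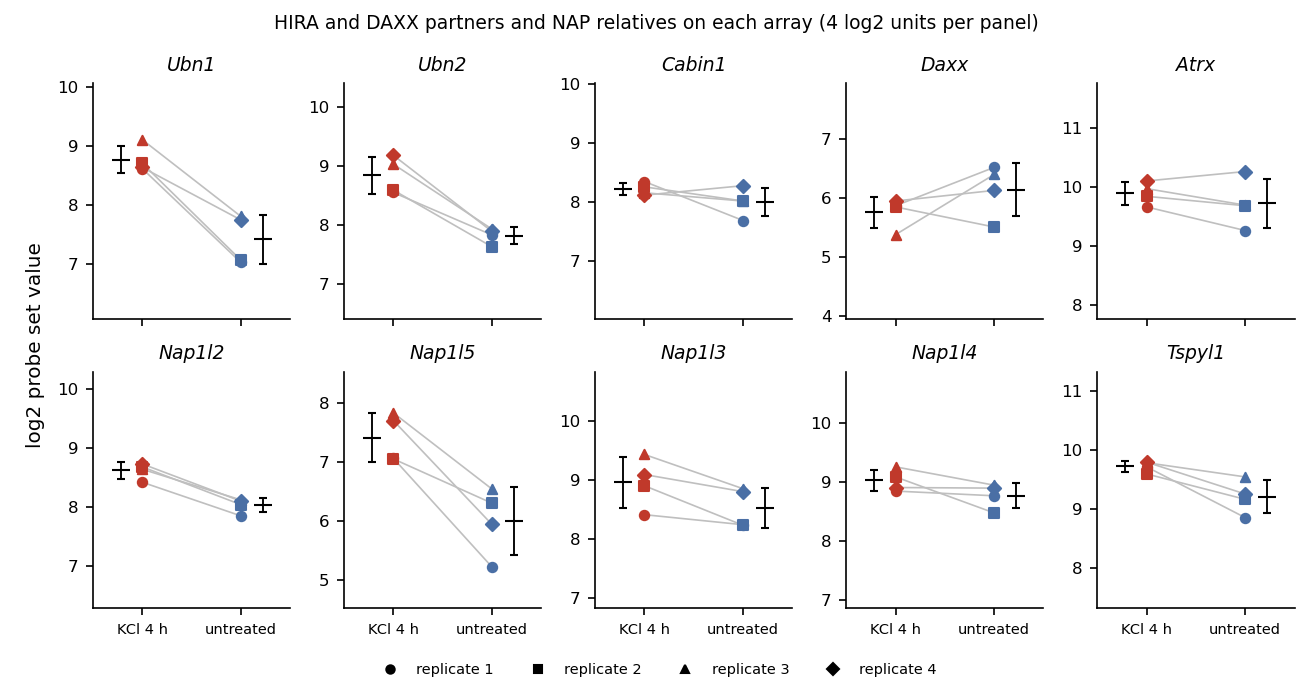
Log2 probe set values (vertical axis, 4 log2 units in every panel) of 10 further chaperone genes in KCl 4 h arrays (red, left) and untreated arrays (blue, right), with lines joining same-numbered arrays and black bars giving mean and SD of 4 arrays. The KCl arrays lie above all untreated arrays for Ubn1, Ubn2, Nap1l2, Nap1l5 and Tspyl1.

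Nap1l2 is an X-linked NAP family gene known mainly from neurons. It had log2 values of 8.42, 8.68, 8.64 and 8.73 in KCl arrays, against 7.85, 8.04, 8.12 and 8.1 in untreated arrays, and the groups did not overlap. It rose 1.51-fold (log2 difference 0.59, SE 0.104, limma adjusted p = 0.0258), a call that held in 2 of 8 fits that each dropped an array (adjusted p up to 0.0846) and was lost with trended and robust moderation (0.078). Nap1l5, an imprinted relative, had values of 7.06, 7.05, 7.83 and 7.7 in KCl arrays, against 5.22, 6.3, 6.54 and 5.94 in untreated arrays. Its log2 difference of 1.41 (SE 0.306) missed the threshold (limma adjusted p = 0.0571). It passed with the replicate number as a block (limma adjusted p = 0.016, SE 0.191), with trended and robust moderation (0.0337) and among genes brighter than the median gene (0.0312). Among their relatives Nap1l3 had a log2 difference of 0.43 and Nap1l4 one of 0.25, each higher in 4 of 4 pairs, and neither passed.

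Tspyl1, a TSPY-like relative of the NAP proteins, is the remaining gene of the list with KCl arrays wholly above untreated ones at a log2 difference over 0.5. It had log2 values of 9.71, 9.59, 9.78 and 9.79 in KCl arrays, against 8.85, 9.16, 9.54 and 9.25 in untreated arrays (log2 difference 0.52, limma adjusted p = 0.13). Npm2, a nucleoplasmin known from oocytes, lay near the array medians at 4.57 ± 0.06 in KCl arrays and 4.27 ± 0.02 in untreated arrays (SD, n = 4 each, limma adjusted p = 0.0954). Of the genes that store, import or receive new H3-H4, none of 10 measured passed, with log2 differences of -0.31 for Tonsl to 0.48 for Cdan1. Nasp, which protects the soluble H3-H4 pool, had a log2 difference of -0.09. None of 5 genes for H2A.Z and H2A-H2B passed, and Aplf, a repair factor that binds histones, had the lowest value of the list at -0.53 (limma adjusted p = 0.144). In the whole list, 6 genes had KCl arrays wholly above the untreated ones and 1 had them wholly below, beside 3.83% and 4.33% of all genes.

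**Figure D3:**
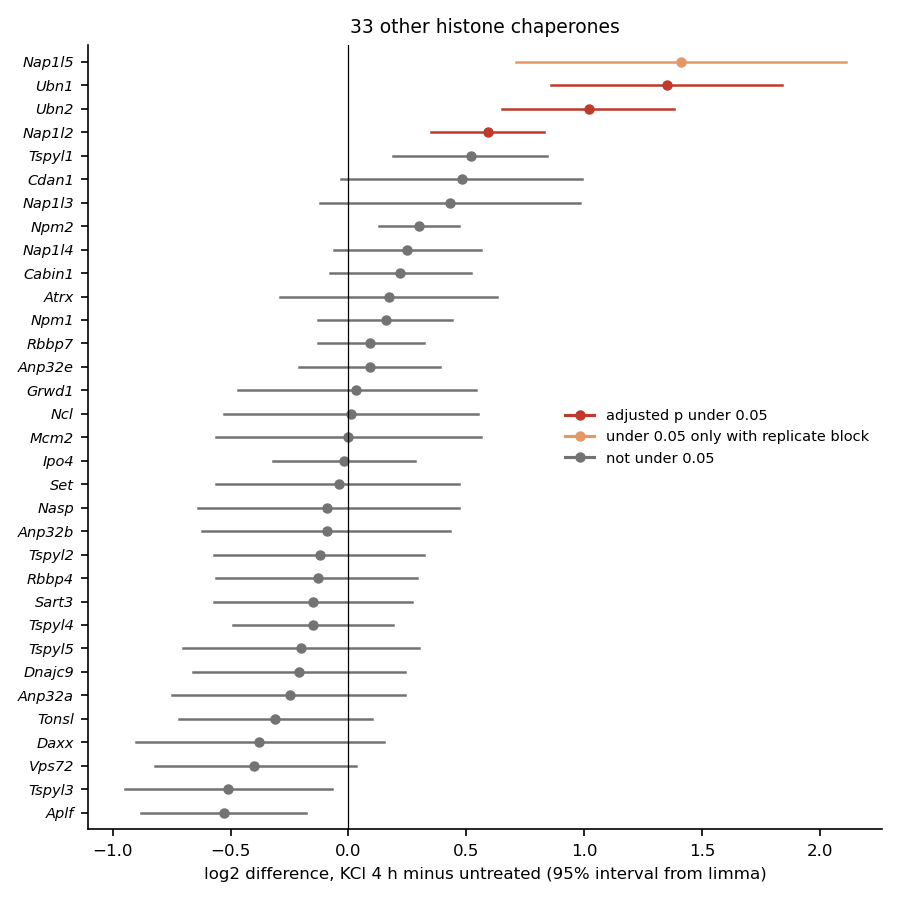
Log2 difference, KCl 4 h minus untreated (horizontal axis), of each of the 33 other measured histone chaperones, with 95% intervals from limma. Ubn1 (1.35), Ubn2 (1.02) and Nap1l2 (0.59) pass the threshold, Nap1l5 (1.41) passes with the replicate block, and the other intervals belong to genes that did not pass in either fit.

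The promoter windows differed in the motifs they held. TGACGTCA was found in 1.79% of 32851 RefSeq promoters of the same length, counting either strand. It was in 0 of the 10 member genes and in 4 of the 25 other chaperone genes with a promoter in the table. Those 25 genes had 28 promoters, so this count is per gene while the share is per promoter. The 4 were Ubn1, starting 91 bases before the start site, Ubn2, starting 122 bases before it, and Aplf and Tspyl4, which did not pass the test. Among the elongation factors described below, TGACGTCA was in 2 of 18 genes with a promoter, Ell2 and Larp7. The core TGACG, which also lies inside TGACGTCA and was found in 20.8% of all promoters, was in 5 member genes. It was also in 18 of the 25 other chaperone genes. TGANTCA, the AP-1 site (7.81% of all promoters), and the CArG box of serum response factor (1.63%) were in none of the members. CCAAT (37.4%) was in 5 members, Spty2d1 included, and in 16 of the 25 other chaperone genes. Ubn1 was among these, with matches that start 66 and 149 bases before the start site and are not in capitals above. In these 300 bases Spty2d1 thus had no match on either strand to the cAMP response element or its core, to the AP-1 site or to the CArG box.

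Supt6 and FACT work on elongating polymerase, so 28 factors that act beside them were listed. Of the 26 measured, 2 rose, none fell and 24 did not pass, beside 1.34% of all genes higher and 1.02% lower. The median log2 difference of these factors was -0.03. Both that rose belong to the machinery that frees paused polymerase. Aff1, a scaffold of the super elongation complex, had log2 values of 7.95, 7.82, 7.76 and 7.89 in KCl arrays, against 6.75, 6.1, 5.71 and 5.7 in untreated arrays. It rose 3.45-fold (log2 difference 1.79, SE 0.221, limma adjusted p = 0.00662) and passed in all 8 fits that each dropped an array. Ccnt1, the cyclin T1 of the kinase P-TEFb, had values of 9.28, 9.47, 9.28 and 8.96 in KCl arrays, against 8.17, 8.58, 8.56 and 8.63 in untreated arrays. It rose 1.7-fold (log2 difference 0.76, SE 0.144, limma adjusted p = 0.0337), a call lost in 6 of 8 such fits (adjusted p up to 0.104) and without both arrays numbered 1 (0.0838).

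The kinase subunit itself, Cdk9, had a log2 difference of -0.18 and did not pass. Larp7, which helps hold P-TEFb inactive in the 7SK particle, had values of 6.53, 6.37, 6.45 and 6.11 in KCl arrays, against 6.05, 5.67, 5.76 and 5.58 in untreated arrays. Its log2 difference of 0.6 missed the threshold (limma adjusted p = 0.0632) and passed with the replicate block (0.0243). It also passed with quantile normalization repeated (0.012), with centring on array medians (0.0349) and without untreated replicate 1 (0.0348). Aff4, the other scaffold, had a log2 difference of 0.48 (limma adjusted p = 0.185). Nelfa, a subunit of the pausing factor NELF, had one of -0.59 (0.292). Ell2, an elongation factor of the same complex, had a log2 difference of 0.28 (limma adjusted p = 0.439) on its brighter probe set. A dimmer one had 1.64 (0.0441 in the fit over all probe sets), so its probe sets disagree. Iws1, the partner of Supt6, had 0.4 and Supt5 did not pass. None of 6 measured genes of the PAF1 complex passed, with log2 differences of -0.26 to 0.03.

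**Figure D4:**
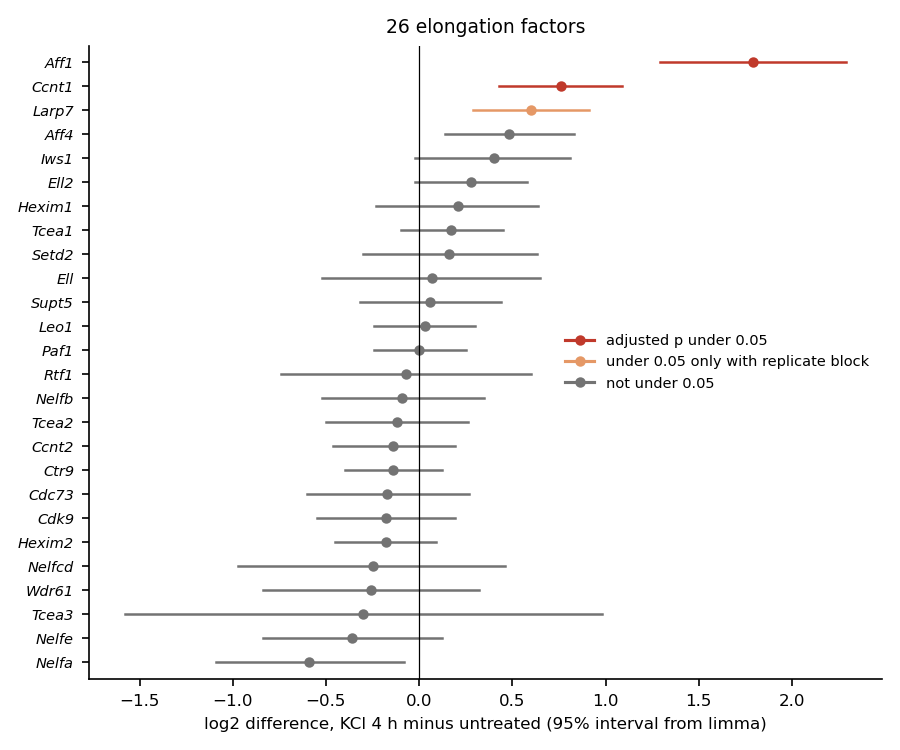
Log2 difference, KCl 4 h minus untreated (horizontal axis), of each of the 26 measured elongation factors, with 95% intervals from limma. Aff1 (1.79) and Ccnt1 (0.76) pass the threshold, and Larp7 (0.6) passes with the replicate block.

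The histones that these chaperones carry showed few differences. None of 8 measured variant histone genes passed, and the smallest p was that of Macroh2a1, the macroH2A variant of silent chromatin, with a log2 difference of -0.5 (limma adjusted p = 0.164). Without adjustment, 1 of the 8 had a limma p under 0.05, beside 2888 of all 22180 genes. H2ax, the variant that marks DNA breaks when phosphorylated, had a log2 difference of -0.45, the H2A.Z gene H2az1 one of 0.21 and Macroh2a2 one of -0.26, and none of these passed. H3f3a and H3f3b, the H3.3 genes, had no probe set of their own. A bright probe set shared by H3f3a and a predicted copy (17548518) had log2 values of 10.48, 10.37, 10.36 and 10.42 in KCl arrays and 10.38, 10.28, 10.3 and 10.4 in untreated arrays. Its log2 difference was 0.07, and it was higher in KCl in 4 of 4 pairs. Both brighter probe sets, shared by H3f3a, H3f3b and 3 other genes, differed the other way. One (17548946) had a log2 difference of -0.11 and was lower in KCl in 4 of 4 pairs, and the other (17548283) had one of -0.08 and was lower in 3 of 4.

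The clustered replication-dependent histone genes make messages without a poly(A) tail, mostly in S phase, and near-identical copies may share probes. None of 27 with a probe set of their own passed. Ranked by p, the H4 genes H4c8 (log2 difference 0.44), H4c1 (0.34) and H4c14 (-0.35) and the H2A gene H2ac20 (-0.83) came first. Without adjustment, 4 of the 27 had a limma p under 0.05, beside 2888 of all 22180 genes. With the replicate block H2ac20 passed (limma adjusted p = 0.041), with values of 3.58, 4.3, 3.94 and 3.73 in KCl arrays and 4.19, 5.68, 4.8 and 4.2 in untreated arrays, all near or under the array medians save 2 untreated ones. Bright probe sets shared by H2ac18, H2ac19 and H2ac20 (17400545 and 17408017, with identical values) averaged 9.28 in KCl arrays and 9.57 in untreated arrays. Their groups overlapped, and 3 of 4 pairs were lower in KCl. A probe set shared by 6 H4 genes (17285706) had values of 5.99, 7.2, 6.64 and 7.01 in KCl arrays and 5.78, 5.37, 5.83 and 6.02 in untreated arrays. It was higher in KCl in 4 of 4 pairs, although KCl replicate 1 lay under untreated replicate 4, and its signal cannot be given to one gene. The other H4 probe sets, each shared by 13 genes, had log2 differences of 0.67 (17291019), 0.16 (17291180), 0.14 (17285846) and -0.12 (17291208). KCl arrays lay wholly above in 17291180 (means 4.15 in KCl and 3.99 in untreated arrays). They lay wholly below in 17291208 (4.24 and 4.36), and the means of both probe sets were under the array medians. The brighter ones, 17285706 (log2 difference 0.96), 17291019 and 17285846, had higher means in KCl, the last 2 with 3 of 4 pairs higher. For H2A genes of the 27, shared probe sets had log2 differences from -0.28 (17400545) to 0.25 (17291204). For H2B genes they ran from -0.11 (17285710) to 0.17 (17285691). The groups overlapped in all of these H2A and H2B probe sets.

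CAF-1 and Asf1b act at the replication fork, so 17 replication and cell cycle genes were set beside them. Of the 16 measured, 2 rose, none fell and 14 did not pass, beside 1.34% of all genes higher and 1.02% lower. The median log2 difference of the 16 was 0.21. Pcna, the clamp that recruits CAF-1 and also serves DNA repair, had log2 values of 9.86, 10.07, 10.24 and 10.08 in KCl arrays, against 8.97, 9.42, 9.4 and 9.23 in untreated arrays (log2 difference 0.81, SE 0.131, limma adjusted p = 0.0191). Rrm1, the large subunit of ribonucleotide reductase, which makes deoxynucleotides, had values of 7.75, 9.04, 8.67 and 8.9 in KCl arrays, against 6.57, 7.2, 7.16 and 6.71 in untreated arrays. It rose 3.21-fold (log2 difference 1.68, SE 0.287, limma adjusted p = 0.0234). The Pcna call was lost in 4 of 8 such fits (adjusted p up to 0.0667) and the Rrm1 call in 6 (up to 0.0769).

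None of 6 measured markers of cycling cells passed. Cdk1, the mitotic kinase, had log2 values of 4.26, 4.9, 5.31 and 5.14 in KCl arrays, against 4.13, 4.26, 4.25 and 4.28 in untreated arrays. Its log2 difference was 0.67 (limma adjusted p = 0.176), and it was higher in KCl in 4 of 4 pairs. It passed without KCl replicate 1 (0.0149) and without both arrays numbered 1 (0.0253). Mki67, the Ki-67 proliferation marker, had values of 5.65, 7.33, 7.39 and 6.41 in KCl arrays, against 5.53, 7.02, 6.31 and 5.56 in untreated arrays, so arrays of replicate 2 were high in both groups. Its log2 difference was 0.59 (limma adjusted p = 0.735), also higher in KCl in 4 of 4 pairs, as in 11.0% of all genes. Birc5, the survivin gene, had a log2 difference of 0.31 (limma adjusted p = 0.475), Top2a, a topoisomerase of dividing cells, one of 0.51, the cell cycle factor E2f1 one of 0.12 and the cyclin gene Ccna2 one of -0.1. Chaf1b was highest in KCl replicate 3, which was also the highest array in Cdk1, Mki67, Top2a and Ccna2, while Birc5 was highest in KCl replicate 2 and E2f1 in KCl replicate 4. The part of cycling cells in that value was not tested.

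The genes that neighbour Spty2d1 did not share its difference. None of the 5 nearest measured protein-coding genes on either side passed, and the median log2 difference of the 10 was -0.1. The nearest on one side, Uevld, had a log2 difference of -0.27. The nearest on the other side, Tmem86a, a transmembrane protein gene, had values of 5.92, 5.56, 5.33 and 5.25 in KCl arrays, against 6.77, 6.04, 6.25 and 6.17 in untreated arrays. Its log2 difference of -0.79 did not pass (limma adjusted p = 0.0896), but did with the replicate block (0.0182) and without both arrays numbered 1 (0.031). Ptpn5, the striatum-enriched phosphatase STEP, had a log2 difference of -0.46 and Gtf2h1, a TFIIH subunit, one of 0.34. The lactate dehydrogenase genes Ldha and Ldhc had log2 differences of 0.16 and -0.12, and Tsg101, a subunit of the ESCRT sorting machinery, had one of 0.19. The receptor genes Mrgpra1, Mrgpra9 and Mrgpra2a, near or under the array medians, had 0.28, -0.1 and -0.1.

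The genes whose profile over the 8 arrays lay nearest to Spty2d1 were found by the root mean square difference of their log2 values, each centred on its own mean. Over 18743 genes that difference had a median of 1.41. It was 0.23 for Heca, 0.24 for the splicing factor Cwc25, 0.26 for the transcription factor Klf4, 0.27 for Gla, the lysosomal alpha-galactosidase, 0.27 for the ubiquitin ligase Rnf217 and 0.28 for the imprinted gene Zdbf2. Heca had log2 values of 9.16, 9.08, 9.12 and 9.41 in KCl arrays, against 6.68, 6.76, 6.71 and 6.71 in untreated arrays, a fold of 5.57. Cwc25 had values of 8.18, 8.44, 8.04 and 8.61 in KCl arrays, against 5.57, 5.7, 5.32 and 5.74 in untreated arrays, a fold of 6.65. The likeness rests chiefly on a group difference of similar size, between 4.7-fold and 8.58-fold in the 6 genes. No other listed chaperone had a log2 difference above 1.41, so nothing is read from their absence among the 6.

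**Figure D5:**
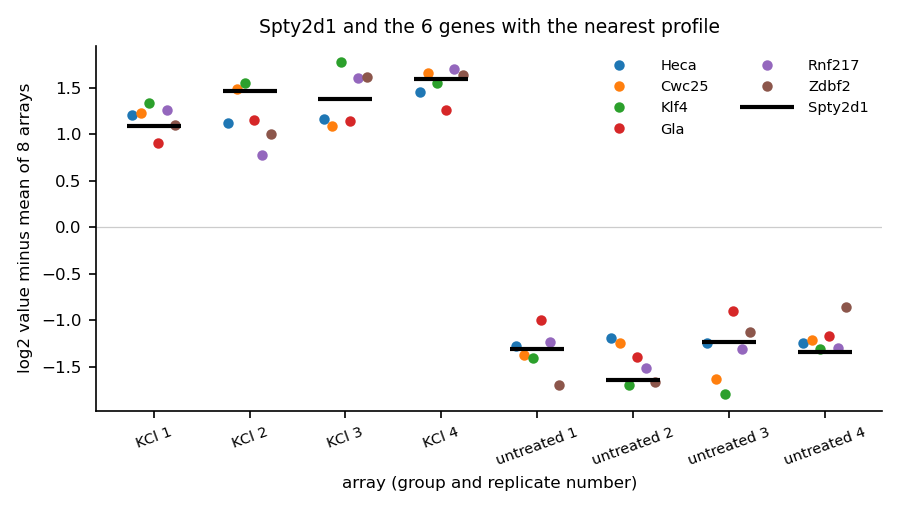
Log2 value of each array minus the gene's mean over 8 arrays (vertical axis) for Spty2d1 (black bars) and the 6 genes with the nearest profile (coloured points), by array, KCl 4 h arrays on the left and untreated arrays on the right. All 7 genes are above 0 in every KCl array and below 0 in every untreated array, with root mean square differences of 0.23 to 0.28 from Spty2d1.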

How the data were processed

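The authors deposited 1 table of log2 values, a row per probe set, from 8 Affymetrix arrays; RMA and Partek are named, per the submitters' processing notes, without versions or settings, and the labelling kit was WT Plus, per the labels' protocols. RMA makes values relative to the arrays processed together and compresses differences near background. Samples were grouped by title.

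Of 34472 probe sets, 23521 had 1 symbol in the platform annotation, 1814 several and 9137 none here. Each of 22180 genes was read from its brightest probe set by the mean of 8 arrays. No column of other samples was in the table. limma 3.58.1 in R 4.3.3 compared KCl with untreated arrays, group as the one term, with Benjamini-Hochberg adjustment over all genes and a threshold of 0.05. In 10 simulations of this comparison over 22180 genes with independent genes, 66.4% of log2 changes of 1 and 92.6% of log2 changes of 2 were recovered, and 6.42% of calls were false. Each run changed 200 genes, with normal noise and no effect shared by same-numbered arrays. The rates hold for that setting and may differ for these arrays.

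Members and lists were chosen with earlier results of these data known. The text names all members; in each list the genes past the threshold and up to 4 with the smallest p; the 10 neighbours; and 6 nearest profiles, leaving out predicted and clone names. Further genes (Nap1l3, Nap1l4, Npm2, Tspyl1, Tspyl4, Tonsl, Cdan1, Nasp, Cabin1, Daxx, Atrx, Aplf, Cdk9, Ell2, Nelfa, Iws1, Supt5, Mki67, Top2a, E2f1, Ccna2, Gad1, Gad2, Slc17a7, Tubb3, Neurod6, Prox1, Camk2a, Neurod2 and Zbtb20) were chosen for their role or after their values were seen, as were the motifs.

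In the sample titles both groups carry replicate numbers 1 to 4, and same-numbered arrays were treated as pairs. Deviations from group means correlated, across genes, at 0.64, 0.23, 0.41 and 0.37 in the 4 same-numbered pairs. The highest correlation between arrays of unlike number, 0.3, was above that of pair 2, so the pairing is not clear-cut. No label says what a number shares, so the pairs were checked only by these correlations. A fit with that number as a replicate block was also made. Other alternatives were repeated quantile normalization, centring on medians, brighter genes, the mean of probe sets, all probe sets, trended and robust moderation, leaving out each array, and leaving out both arrays numbered 1. Figures were drawn with matplotlib 3.10.9.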

Additional observations from a re-analysis of the deposited data

Results flagged for a closer look

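In 39 named genes, each group of 4 arrays was screened for an array far from the other 3, and 6 of 78 groups had one; chance alone flags about 1 in 20. Chaf1a stood at 4.49 in KCl replicate 3, against 4.21 to 4.24 in the other KCl arrays. Nap1l1 stood at 8.4 in untreated replicate 1, against 9.21 to 9.3 in the other untreated arrays. Supt6 stood at 9.97 in untreated replicate 1, against 9.8 to 9.81 in the others. Ccnt1 stood at 8.17 in untreated replicate 1, against 8.56 to 8.63. Aff4 stood at 10.95 in KCl replicate 4, against 11.22 to 11.26. H4c8 stood at 4.97 in KCl replicate 1, against 5.21 to 5.23.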

How the results depend on the processing

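No result past the threshold reversed under the alternatives run; among members, the small differences of Hira (-0.14 to 0.061), Chaf1a (-0.067 to 0.044) and Supt6 (-0.086 to 0.013) changed sign when 1 array was left out. With the replicate block, 539 genes were higher and 446 lower over all genes, 1 replication-dependent histone gene (H2ac20) and 1 neighbour (Tmem86a) fell, and Nap1l5 and Larp7 passed; the other named list genes kept their call, and among markers Gad2 passed. Trended and robust moderation left 150 genes lower. The median over all genes was 0.022 with centring on array medians and -0.05 among genes brighter than the median gene, where the members' median was 0.185; the members' median was 0.014 with repeated quantile normalization and 0.024 to 0.14 with 1 array left out. Nap1l5 passed and Nap1l2 did not with trended and robust moderation. Without both arrays numbered 1, 1 elongation factor (Aff1) and 1 replication-dependent histone gene (H4c8) rose and 1 neighbour (Tmem86a) fell. Leaving out 1 array at a time gave 118 to 254 genes higher and 68 to 247 lower over all genes, 0 to 3 other chaperones, 1 to 3 elongation factors and 0 to 3 replication and cycling genes higher. Fewer arrays were fitted there, and the cause of the other changes was not tested. With 4 arrays a group, the number of arrays limits the precision, and dim genes such as Asf1b, Chaf1a and Chaf1b lie near the array medians.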
